A study of Homo sapiens with 8 samples.

Results

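The genes described here are 34 genes of the oxidative stress defence of human cells: the transcription factor NRF2 and its inhibitor KEAP1, genes that NRF2 is known to induce, and the enzymes that remove superoxide and peroxides. They were taken by symbol from a fixed list, not by a rule on their values, but with earlier results of these data known. All 34 were found among the 34415 symbols of the deposited count table. The RNA came from HaCaT cells, human keratinocytes of the epidermis that became immortal in culture without a transgene, in 8 cultures between passages 21 and 33. All 8 cultures spent 96 h in RPMI-1640 medium with fetal bovine serum and glucose raised from 5.5 mM to 35 mM. For 48 h they were transfected either with small interfering RNA against ETV4 (siETV4, 4 cultures) or with a negative-control RNA (siNC, 4 cultures). ETV4 is a transcription factor of the ETS family, and the study's title names reactive oxygen species upstream of it. The values below therefore compare the siRNAs within high glucose. Cultures at the usual glucose level were not analysed here, and all 8 libraries come from 1 cell line. The labels call the cultures independent biological replicates.

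NRF2, encoded by NFE2L2, is held in the cytoplasm by KEAP1 and degraded. Oxidants and electrophiles modify cysteines of KEAP1, NRF2 then accumulates in the nucleus, pairs with a small MAF protein and binds the antioxidant response element in front of its target genes. Because this control acts on the protein, the messenger RNA of the targets is the usual readout of the pathway, more than that of NFE2L2. In keratinocytes the pathway is known for protection against ultraviolet light and other oxidants. Its targets make and recycle glutathione and thioredoxin, supply the NADPH that both systems consume, reduce quinones and aldehydes and store iron, while superoxide dismutases, catalase, glutathione peroxidases and peroxiredoxins remove the oxidants themselves.

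Library totals ranged from 35057643 to 41657753 counts. ETV4 itself stood at 2.61 ± 0.547 CPM (SD, n = 4) in siETV4 and 28.2 ± 5.64 CPM (SD, n = 4) in siNC. CPM, the counts scaled to a common library total with TMM factors, are used for levels. The 8 keratinocyte markers KRT5, KRT14, KRT15, TP63, CDH1, ITGA6, DSP and SFN summed to 4001 to 4304 CPM under siETV4 and 4324 to 4797 CPM under siNC. Of these, KRT15, a keratin of basal keratinocytes, was lower under siETV4, at 336 ± 15.3 against 599 ± 72.8 CPM (SD, n = 4 each). Its edgeR adjusted p was 0.00636 and its log2 fold change -0.83 (SE 0.10). The 13 mitochondrial transcripts taken as a sign of RNA quality had log2 fold changes from -0.32 to -0.13, 0 of them past the threshold, and held 3.38 to 4.50% of counts in siETV4 and 3.98 to 5.04% in siNC. The part of either in the results below was not tested. The fibroblast, melanocyte, leukocyte and endothelial lists summed to at most 25.1 CPM each in any library, and COL1A2, LUM, MLANA, TYR and PTPRC had no count. One control library, siNC replicate 4, stands apart from the other 3 controls and touches most results below. The departure of a library from the 8-library mean, gene by gene, followed the GC content of transcripts across 12767 genes with a Spearman's rho of 0.55, 0.52 and 0.63 in siNC replicates 1 to 3 and of -0.60 in siNC replicate 4. The siETV4 libraries had rho of -0.64, 0.20, -0.57 and 0.02 in the order of their numbers.

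Of the 34 genes, 33 had enough counts to be tested. GPX3, the glutathione peroxidase secreted into plasma, had 3 counts in all 8 libraries together. With edgeR's quasi-likelihood test and Benjamini-Hochberg adjustment over the 13572 genes tested, 0 of the 33 passed an adjusted p of 0.05, against 0.236% of all genes. At an unadjusted p under 0.05, 2 of the 33 were higher and 7 lower in siETV4, against 12.6% of all genes in either direction (5.8% higher, 6.79% lower). DESeq2 called 2 of the 33, SOD2 higher and AKR1B10 lower, against 1.64% of all genes (0.884% higher, 0.759% lower), and limma-voom called 0 (0.309% of all genes). The median log2 fold change of the 33 genes, siETV4 minus siNC, was -0.04, with 15 positive and 18 negative values. Over all genes tested the median was -0.01. In bulk RNA, fewer cells that express a gene and less of its RNA per cell cannot be told apart. The median of their absolute log2 values was 0.11, against 0.18 over all genes, and 1 of 33 (SOD2) reached 1.5-fold, or 3.03%, against 6.19% of all genes.

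The largest differences ran in both directions. The mitochondrial superoxide dismutase SOD2 and the thioredoxin reductase TXNRD1 had the highest log2 fold changes, 0.59 and 0.52. The ferritin light chain FTL, the aldo-keto reductases AKR1C1 and AKR1B10, and the peroxiredoxin PRDX6 had the lowest, -0.45, -0.43, -0.43 and -0.30. With all 8 libraries, the values of the siRNA groups did not overlap for 2 of the 33 genes, AKR1B10 and AKR1C1, both lower in siETV4, against 6.55% of all genes in either direction and 3.93% lower. Without siNC replicate 4 the groups did not overlap for 3 higher and 7 lower members. The shares over all genes were 15.8% higher and 12.9% lower (28.7% in either direction). Only the total was near that of the list, in which more genes were lower than higher. When siNC replicate 4 was left out, 10 of the 33 genes passed an edgeR adjusted p of 0.05, against 16.9% of all genes (12% higher, 4.88% lower). Of these, SOD2, TXNRD1 and PRDX3 were higher and FTL, AKR1C1, TKT, PGD, AKR1B10, PRDX6 and NQO1 lower. In each of the other 7 runs that left out 1 library, 0 of the 33 passed, against 0.0727, 0.109, 0.0654 and 0.116% of all genes without siETV4 replicates 1 to 4 and 0.0943, 0.0724 and 0.0944% without siNC replicates 1 to 3. When a trend of each library with GC content and transcript length was removed, 4 of the 33 passed, against 1.7% of all genes (0.838% higher, 0.862% lower): SOD2 higher and AKR1B10, FTL and PRDX6 lower (edgeR adjusted p 0.0261, 0.0186, 0.0104 and 0.0389). With that correction and without siNC replicate 4, 2 of the 33 were higher (SOD2, TXNRD1) and 9 lower, against 2.98% and 3.45% of all genes (6.43% in either direction). The 9 were GCLM, TXN, NQO1, AKR1B10, AKR1C1, AKR1C2, AKR1C3, FTL and PRDX6. With all 8 libraries and no correction, GCLM, AKR1C2 and AKR1C3 had log2 fold changes of 0.01, -0.07 and -0.09. The rest of the 9 ranged from -0.45 (FTL) to -0.15 (TXN).

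**Figure D1:**
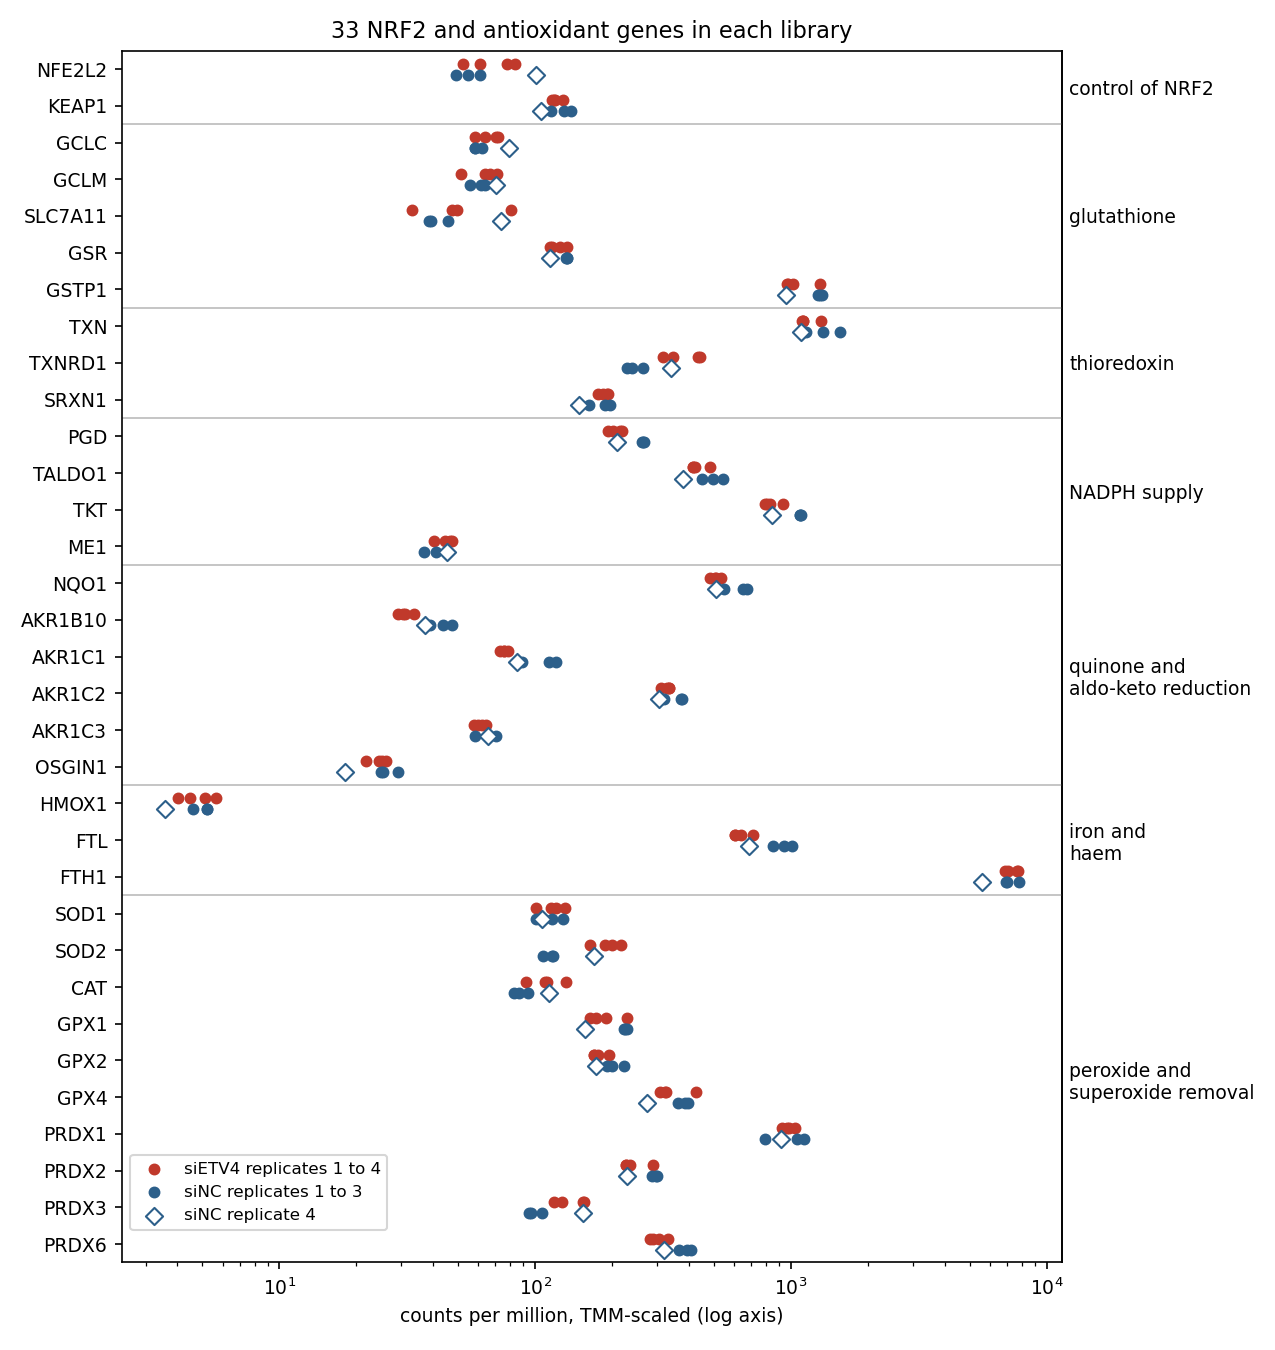
CPM of the 33 tested genes on a log axis, grouped by function. Filled circles are the siETV4 libraries (upper row of each gene) and siNC replicates 1 to 3 (lower row), and the open diamond is siNC replicate 4, which lies beside the siETV4 libraries for SOD2, TXNRD1, TKT and PGD. HMOX1 is the lowest and FTH1 the highest gene.

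The antioxidant response element was looked for in the promoters, since it is the sequence through which NRF2 reaches its targets. The core, whose letters are TGAC, any 3 bases and GC, was searched on both strands in the 250 bases before each RefSeq gene start (GRCh38.p14). A promoter entry was found for 26 of the 34 genes. Of these, 7 held the core (26.9%), against 13.2% of the 27305 genes with an entry. Their log2 fold changes ran in both directions: TXNRD1 had a log2 fold change of 0.52 and PGD of -0.28, and the median over the 7 was -0.02, against -0.08 over the 18 tested genes with an entry but no core in this window. The windows of the 7 genes follow, each 5′ to 3′ on the gene's strand with the core in capitals. They are shown so that genes with positive, negative and near-zero log2 fold changes can be compared at the same element.
TXNRD1, window 1 (chr12:104215670-104215698, plus strand, core from 99 bases before the start): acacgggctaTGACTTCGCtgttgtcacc
TXNRD1, window 2 (chr12:104286920-104286948, plus strand, core from 102 bases before the start): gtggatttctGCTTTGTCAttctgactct
PGD (chr1:10398853-10398881, plus strand, core from 201 bases before the start): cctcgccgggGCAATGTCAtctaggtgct
GCLM (chr1:93909446-93909474, minus strand, core from 34 bases before the start): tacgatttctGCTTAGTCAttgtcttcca
GSTP1 (chr11:67583736-67583764, plus strand, core from 66 bases before the start): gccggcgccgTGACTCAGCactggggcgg
ME1 (chr6:83431170-83431198, minus strand, core from 137 bases before the start): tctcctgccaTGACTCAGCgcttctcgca
GPX2 (chr14:64942849-64942877, minus strand, core from 122 bases before the start): acctgtttttGCTAAGTCAtcctggggat
KEAP1, window 1 (chr19:10502807-10502835, minus strand, core from 54 bases before the start): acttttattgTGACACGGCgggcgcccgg
KEAP1, window 2 (chr19:10502784-10502812, minus strand, core from 31 bases before the start): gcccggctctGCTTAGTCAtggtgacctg
GSTP1 and ME1 hold the same 9 bases as core, and GCLM and the second KEAP1 window the same 9 bases on the opposite strand. TXNRD1 has 2 entries, 1 for each of 2 gene starts. The KEAP1 windows and the second TXNRD1 window lie before an inner start of the gene, so they are inside its annotated span. In GENCODE v29 the windows of GCLM, GSTP1 and GPX2, both of KEAP1 and the second of TXNRD1 overlap an exon of the gene itself, and that of GPX2 also lies within CHURC1 and CHURC1-FNTB, outside their exons. That of PGD lies within the gene without an exon, and those of ME1 and the first of TXNRD1 lie in no annotated gene. A match is only a run of letters. Binding was not measured.

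The pair at the head of the pathway did not separate by siRNA. NFE2L2 (chromosome 2, 177230303 to 177264727; RefSeq coordinates on GRCh38.p14 here and below) stood at 83.8, 52.1, 77.4 and 61.1 CPM under siETV4 replicates 1 to 4 and at 61.1, 48.8, 54.6 and 100.4 CPM under siNC replicates 1 to 4. The highest value of the 8 was that of siNC replicate 4, above every siETV4 library, while siNC replicates 1 to 3 lay below the middle of the siETV4 range. Its log2 fold change was 0.05 (SE 0.22) and was 0.32 without siNC replicate 4. KEAP1, the cysteine-rich adaptor that hands NRF2 to a ubiquitin ligase, varied less, with 118, 129, 116 and 119.5 CPM under siETV4 and 116, 139, 129.9 and 106 CPM under siNC (log2 fold change -0.02, SE 0.10). Here siNC replicate 4 was the lowest library.

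Glutathione is built from cystine that SLC7A11 imports, by the glutamate-cysteine ligase of GCLC and GCLM. GSTP1, the glutathione S-transferase that conjugates electrophiles, was by far the most abundant of these genes per length, with a mean over the 8 libraries of 1533 FPKM (fragments per kilobase scaled to library total, as deposited), against 41.2 for GSR, 17.1 for GCLC, 9.88 for GCLM and 5.25 for SLC7A11. GSTP1 (chromosome 11, 67583812 to 67586653) stood at 976, 1303, 1022 and 963 CPM under siETV4 and 1301, 1279, 1317 and 957 CPM under siNC. The siETV4 replicates 1, 3 and 4 and siNC replicate 4 lay together near the low value and the other libraries near the high one, and the groups overlapped (log2 fold change -0.19, SE 0.13, edgeR adjusted p 0.551). GSR, glutathione reductase, which returns oxidized glutathione to its reduced form, ranged from 114 to 134 CPM under siETV4. In siNC it stood at 133, 132, 133 and 115 CPM, 3 nearly equal values and a lower replicate 4 (log2 fold change -0.07, SE 0.09).

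GCLC and GCLM, the catalytic and modifier subunits of the ligase, were nearly level between the groups, with log2 fold changes of 0.03 (SE 0.12) and 0.01 (SE 0.12). GCLC ranged from 58.0 to 71.4 CPM under siETV4 and from 58.3 to 79.1 CPM under siNC, and GCLM from 51.3 to 71.1 and from 55.7 to 70.3 CPM. SLC7A11 was one of the 2 most variable genes of the list within a group, together with NFE2L2. It ranged from 33 to 80.1 CPM under siETV4 and from 38.5 to 73.6 CPM under siNC (log2 fold change 0.09, SE 0.27). Its highest values were those of siETV4 replicate 1 and siNC replicate 4, 2 of the 3 libraries with negative GC trends. After correction for GC content and length, all 5 glutathione genes had negative log2 fold changes, and none of the 5 passed. The values ranged from -0.26 (GCLM, SE 0.13) to -0.03 (GSTP1, SE 0.05).

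In the thioredoxin system, TXNRD1 transfers electrons from NADPH to thioredoxin (TXN), which reduces protein disulfides and peroxiredoxins, and sulfiredoxin (SRXN1) rescues overoxidized peroxiredoxins. TXNRD1 (chromosome 12, 104215779 to 104350307) stood at 440.5, 316, 434 and 347 CPM under siETV4 and at 239.8, 265, 228 and 339.9 CPM under siNC. All 4 siETV4 libraries lay above siNC replicates 1 to 3, and siNC replicate 4 lay within the siETV4 range. Without that library, siETV4 lay wholly above siNC for 15.8% of all genes tested. The group means were 384 ± 62.4 and 268 ± 50.3 CPM (SD, n = 4 each). The log2 fold change of 0.52 (SE 0.15) had an edgeR adjusted p of 0.229. Without siNC replicate 4 it was 0.65 (SE 0.12, edgeR adjusted p 0.00796), and after correction for GC content and length 0.39 (SE 0.09, edgeR adjusted p 0.0514).

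Its substrate did not show that pattern. TXN (chromosome 9, 110243810 to 110256507), the second most abundant gene of the list per length at 1653 FPKM, stood at 1118, 1308, 1111 and 1106 CPM under siETV4 and 1147, 1553, 1338 and 1096 CPM under siNC, with overlapping groups and a log2 fold change of -0.15 (SE 0.12). SRXN1 ranged from 175 to 193 CPM under siETV4 and from 148 to 196 CPM under siNC (log2 fold change 0.10, SE 0.10).

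NADPH is supplied here by the pentose phosphate pathway, in which PGD oxidizes 6-phosphogluconate and TKT and TALDO1 rearrange the sugars, and by malic enzyme (ME1) in the cytosol. PGD and TKT showed one and the same arrangement. PGD (chromosome 1, 10399064 to 10420511) stood at 201, 214, 192 and 219 CPM under siETV4 and 262, 267, 263 and 209 CPM under siNC, and TKT (chromosome 3, 53224712 to 53256022) at 803, 935, 793 and 825 and 1089, 1096, 1089 and 841 CPM. For both genes siNC replicates 1 to 3 were nearly equal and above every siETV4 library, and siNC replicate 4 lay within the siETV4 range. Without that library, siETV4 lay wholly below siNC for 12.9% of all genes tested. The log2 fold changes were -0.28 (SE 0.10, edgeR adjusted p 0.322) and -0.29 (SE 0.10, edgeR adjusted p 0.328). Without siNC replicate 4 they were -0.35 and -0.38 (edgeR adjusted p 0.0160 and 0.0149), and after correction for GC content and length -0.17 and -0.16 (edgeR adjusted p 0.149 and 0.164).

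TALDO1, the transaldolase and the most abundant of the 4 per length (374 FPKM against 295 for TKT, 92.1 for PGD and 12.9 for ME1), stood at 422, 482, 414 and 413 CPM under siETV4 and 448, 541, 498 and 378 CPM under siNC. The groups overlapped (log2 fold change -0.11, SE 0.11). ME1 ranged from 40.2 to 47.4 CPM under siETV4 and from 36.9 to 45.3 CPM under siNC (log2 fold change 0.09, SE 0.11).

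Among the enzymes that reduce quinones and carbonyls, 5 of 6 had a negative log2 fold change, against 7004 of all 13572 genes tested. The 2 of them whose groups did not overlap are aldo-keto reductases. AKR1B10 (chromosome 7, 134527567 to 134541412), which reduces retinal and other aldehydes, stood at 30.4, 29.1, 33.7 and 31.1 CPM under siETV4 and 38.8, 43.7, 47.5 and 37.0 CPM under siNC. Every siETV4 library was below every siNC library, siNC replicate 4 included, and the means were 31.1 ± 1.94 and 41.8 ± 4.78 CPM (SD, n = 4 each). Its log2 fold change of -0.43 (SE 0.11) did not pass by edgeR (adjusted p 0.216) and passed by DESeq2 (adjusted p 0.0403). It also passed by edgeR without siNC replicate 4 (adjusted p 0.0159) and after correction for GC content and length (-0.46, adjusted p 0.0186).

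AKR1C1, AKR1C2 and AKR1C3 reduce ketosteroids and lipid aldehydes and lie side by side on chromosome 10, from 4963415 at the start of AKR1C1 to 5107686 at the end of AKR1C3. Their sequences are similar, and no source used here says how reads shared among them were counted, so the split among the 3 is uncertain. AKR1C1 stood at 75.8, 78.2, 73.2 and 75.5 CPM under siETV4, 4 values between 73.2 and 78.2 CPM, and at 88.7, 121, 113 and 85.0 CPM under siNC, all of them higher. The log2 fold change was -0.43 (SE 0.12, edgeR adjusted p 0.228), -0.51 without siNC replicate 4 (edgeR adjusted p 0.0124) and -0.64 after correction for GC content and length (SE 0.19, edgeR adjusted p 0.123). AKR1C2, the most abundant of the 3 per length (81.0 FPKM against 32.7 for AKR1C3 and 13.5 for AKR1C1), stood at 333, 332, 328 and 311 CPM under siETV4 and 319, 373, 375 and 305 CPM under siNC, with a log2 fold change of -0.07 (SE 0.09). AKR1C3 had -0.09 (SE 0.09). The groups overlapped for AKR1C2 and AKR1C3.

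NQO1, the quinone reductase that is the usual marker of NRF2 activity, was the most abundant gene of this group per length at 218 FPKM. NQO1 (chromosome 16, 69709401 to 69726560) stood at 503, 534, 510.5 and 482 CPM under siETV4 and 545, 674, 647 and 508 CPM under siNC. The siNC libraries split into replicates 2 and 3, which were highest, and replicates 1 and 4, of which 4 lay within the siETV4 range. The log2 fold change was -0.23 (SE 0.10, edgeR adjusted p 0.393), and it passed without siNC replicate 4 (-0.29, edgeR adjusted p 0.0406) but not after correction for GC content and length (-0.31, edgeR adjusted p 0.0927). OSGIN1, a growth inhibitor induced by oxidized lipids, was close to level (log2 fold change 0.0019, SE 0.15), with 21.8 to 26.2 CPM under siETV4 and 18.1 to 29.2 CPM under siNC.

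**Figure D2:**
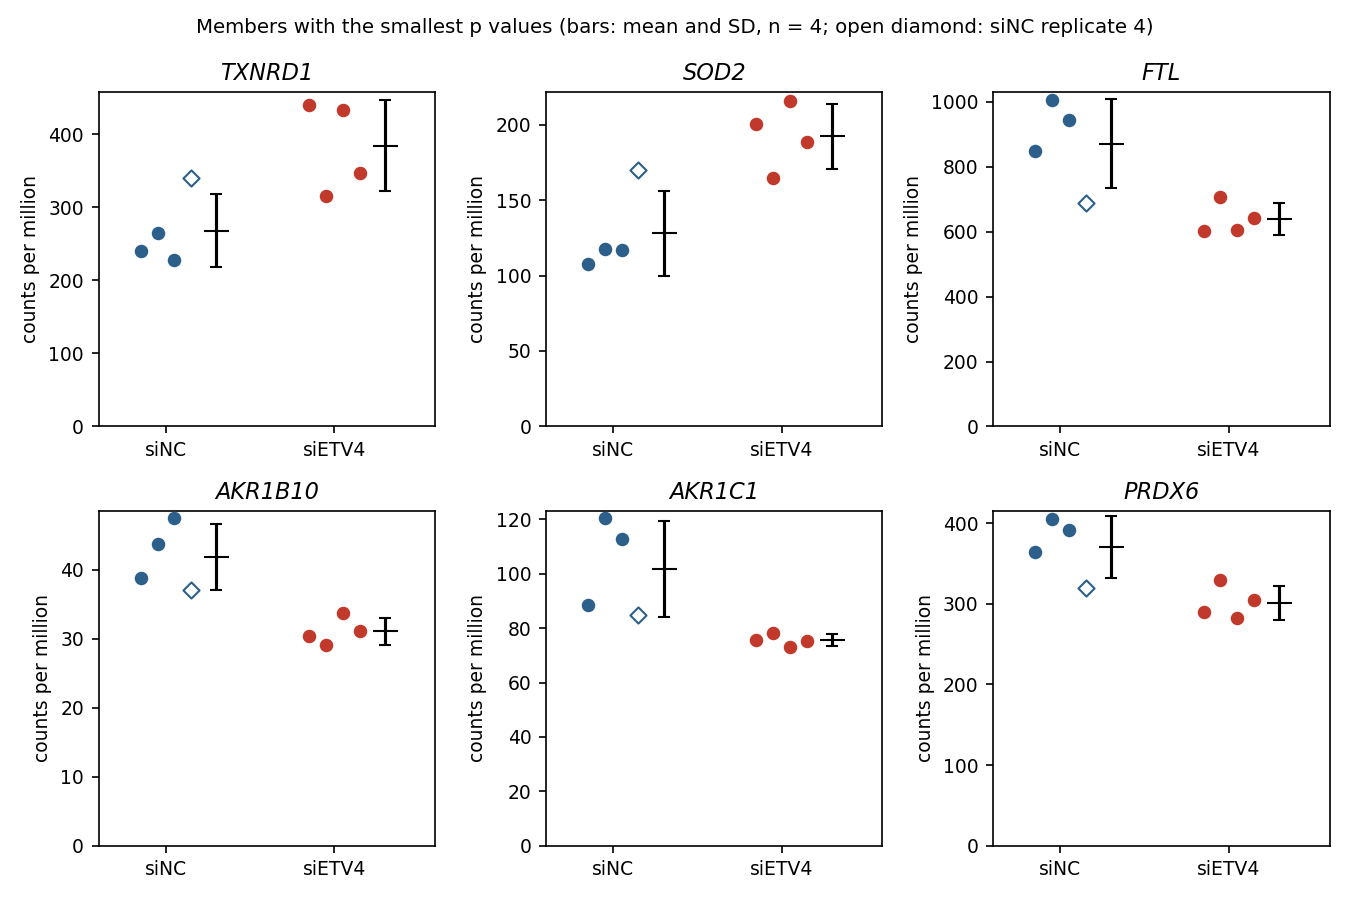
CPM per library, on axes that start at 0, for the 6 genes with the smallest unadjusted p of the list. Black bars are the mean and SD of 4 libraries, and the open diamond is siNC replicate 4. The siRNA groups are apart for AKR1B10 and AKR1C1, and for the other 4 genes siNC replicate 4 lies within the range of the siETV4 libraries.

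Ferritin stores iron in a shell of heavy (FTH1) and light (FTL) chains, which keeps it from reacting with peroxides. FTH1 was the most abundant gene of the list per length, at 5878 FPKM, followed among the iron genes by FTL at 863 FPKM. Their log2 fold changes had opposite signs. FTL (chromosome 19, 48965309 to 48966879) stood at 603, 708, 604 and 641 CPM under siETV4 and 848, 1006, 943 and 688 CPM under siNC. All siETV4 libraries lay below siNC replicates 1 to 3, as for 12.9% of all genes tested, while siNC replicate 4 lay below siETV4 replicate 2. The log2 fold change was -0.45 (SE 0.12, edgeR adjusted p 0.20), with means of 639 ± 49.3 and 871 ± 138 CPM (SD, n = 4 each). It passed without siNC replicate 4 (-0.55, edgeR adjusted p 0.00612) and after correction for GC content and length (-0.31, edgeR adjusted p 0.0104).

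FTH1 (chromosome 11, 61964285 to 61967634) stood at 7082, 7745, 6854 and 7627 CPM under siETV4 and 7796, 6978, 6939 and 5600.3 CPM under siNC, with overlapping groups and a log2 fold change of 0.10 (SE 0.11), which was 0.02 without siNC replicate 4. RefSeq lists 27 numbered pseudogenes of FTH1 and 20 of FTL, none of them a symbol of the count table, and no source used here says where reads shared with them were counted. HMOX1, heme oxygenase 1, a target induced many-fold by heme and electrophiles in other settings, was the least abundant tested gene of the list at 3.04 FPKM. It ranged from 4.01 to 5.65 CPM under siETV4 and from 3.56 to 5.22 CPM under siNC (log2 fold change 0.05, SE 0.18).

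Superoxide is converted to hydrogen peroxide by SOD1 in the cytosol and SOD2 in mitochondria. SOD2 (chromosome 6, 159669069 to 159762281), which is known also as a gene induced by inflammatory cytokines, stood at 200.2, 164, 216 and 188 CPM under siETV4 and 108, 117, 117 and 169.8 CPM under siNC. All siETV4 libraries but replicate 2 lay above all siNC libraries, and siNC replicates 1 to 3 lay far below siNC replicate 4. The means were 192 ± 21.7 and 128 ± 28.3 CPM (SD, n = 4 each). Its log2 fold change, the highest of the list, was 0.59 (SE 0.14, edgeR adjusted p 0.170). It passed by DESeq2 (adjusted p 0.0214), by edgeR without siNC replicate 4 (0.75, adjusted p 0.00219) and by edgeR after correction for GC content and length (0.46, adjusted p 0.0261).

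The annotated span of SOD2 overlaps ACAT2 and WTAP. Without a stated strand setting, reads of these genes cannot be told apart where they overlap. ACAT2 stood at 72.5 CPM under siETV4 and 92.0 CPM under siNC (log2 fold change -0.34) and WTAP at 49.1 and 45.2 CPM (0.12). SOD1 was level, with 100.4 to 131 CPM under siETV4 and 101 to 128 CPM under siNC (log2 fold change 0.05, SE 0.11).

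Peroxides are removed by catalase, glutathione peroxidases and peroxiredoxins, and of these 8 tested genes PRDX6 had the smallest p. PRDX6 (chromosome 1, 173477335 to 173488815), which also acts on phospholipid peroxides, stood at 289, 329.5, 282 and 304 CPM under siETV4 and 364, 405, 391.9 and 319 CPM under siNC. The groups overlapped only through siETV4 replicate 2, which lay above siNC replicate 4. The log2 fold change was -0.30 (SE 0.10, edgeR adjusted p 0.282). It passed without siNC replicate 4 (-0.36, edgeR adjusted p 0.0173) and after correction for GC content and length (-0.42, edgeR adjusted p 0.0389).

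PRDX3, the mitochondrial peroxiredoxin, had a positive log2 fold change of 0.30 (SE 0.16, edgeR adjusted p 0.459). It stood at 156, 128, 154 and 118 CPM under siETV4 and 96.1, 106, 94.9 and 154 CPM under siNC, the latter being 3 low values and a replicate 4 at the top of the siETV4 range. Without siNC replicate 4 it passed (0.49, edgeR adjusted p 0.0154), and after correction for GC content and length it did not (0.13, edgeR adjusted p 0.556). Of the 3 genes that were higher without siNC replicate 4, SOD2 and PRDX3 encode mitochondrial enzymes. In that fit the mitochondrial enzymes ME2 and IDH2 of the wider list, described below, passed in opposite directions (0.60 and -0.54). PRDX1 and PRDX2, the cytosolic peroxiredoxins, had log2 fold changes of 0.01 (SE 0.11) and -0.19 (SE 0.11). PRDX1, the most abundant gene of this group per length at 761 FPKM, stood at 969, 1034, 984 and 924 CPM under siETV4 and 789, 1125, 1055 and 911 CPM under siNC.

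Catalase (CAT), the peroxisomal enzyme, ranged from 92.0 to 133 CPM under siETV4 and from 83.1 to 113 CPM under siNC (log2 fold change 0.24, SE 0.13, edgeR adjusted p 0.462). GPX4, the peroxidase that protects membranes from lipid peroxidation and so from ferroptosis, stood at 308, 425, 323 and 326 CPM under siETV4 and 363, 397, 385 and 274 CPM under siNC, with siETV4 replicate 2 the highest and siNC replicate 4 the lowest of the 8 (log2 fold change -0.04, SE 0.14). GPX1, the cytosolic form, and GPX2, the epithelial form, had log2 fold changes of -0.14 (SE 0.14) and -0.15 (SE 0.10). The groups overlapped for CAT, GPX1, GPX2, GPX4, PRDX1 and PRDX2.

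**Figure D3:**
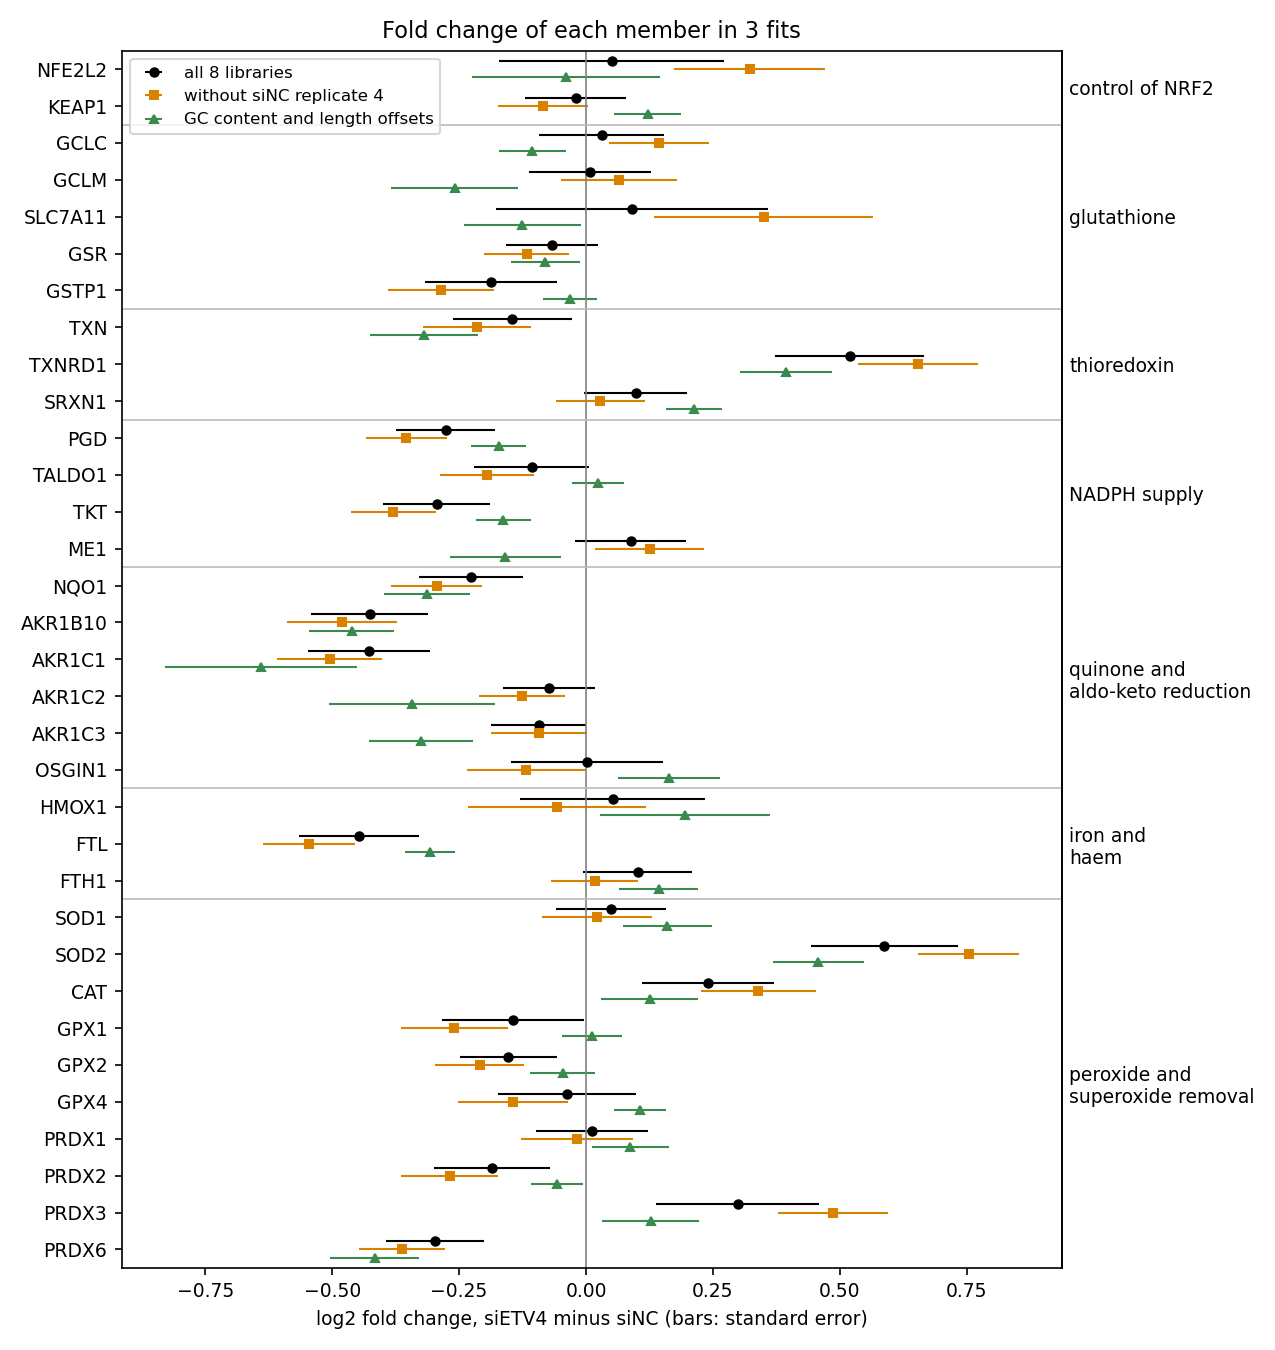
Log2 fold change of each tested gene, siETV4 minus siNC, with its standard error, in 3 edgeR fits: all 8 libraries (circles), without siNC replicate 4 (squares) and after correction for GC content and length (triangles). SOD2 and TXNRD1 lie to the right of 0 and AKR1B10, AKR1C1, FTL, PRDX6, NQO1, TKT and PGD to the left in the 3 fits, while NFE2L2, KEAP1, GCLC, GCLM, SLC7A11, TALDO1, ME1, OSGIN1, HMOX1, GPX1, GPX4 and PRDX1 change side.

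How much the list turns on 1 control library can be read from where that library lies. For 30 of the 33 genes siNC replicate 4 was outside the range of siNC replicates 1 to 3 (75.1% of all genes tested), and for 28 of 33 it was closer to the siETV4 mean than to the mean of those 3 (73.6% of all genes tested). In the library itself 11 of the 33 genes were above the mean of all 8 libraries, against 17, 23 and 23 in siNC replicates 1 to 3 and 14, 17, 12 and 10 in siETV4 replicates 1 to 4. The 34 genes together held 1.48% of its counts, 1.71 to 1.74% in the other siNC libraries and 1.64 to 1.75% in siETV4. FTH1 alone held 0.574% of the counts of siNC replicate 4, 0.669 to 0.767% in the other siNC libraries and 0.714 to 0.776% in siETV4. The part of that library in the members' differences beyond these values was not tested.

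GC content is one measure that moves with it. The transcripts of the 33 genes ranged from 35.4% GC (SLC7A11) to 64.2% (GPX1), with a median of 48.2%, against 48.3% over all genes with a value. Of the 11 members under 45% GC, 7 had a positive log2 fold change. Of the 10 members with at least 55% GC, 2 did. Across the 33 genes, Spearman's rho of the log2 fold change with GC content was -0.28, and -0.41 without siNC replicate 4. Over 12767 genes it was -0.55 and -0.68. After correction for GC content and length with all 8 libraries, rho was 0.39 across the 33 genes and 0.02 over the 12767. The correction thus left a trend of the opposite sign in this list, and calls made after it can still follow GC content. These are descriptions across genes that share the same 8 libraries. AKR1C1 went against the order, low in GC content (42.4%) and lower in siETV4, and so did TXN (42.8%) and PRDX6 (45.2%), while SOD2 (41.7%) and TXNRD1 (44.8%) were low in GC content and higher.

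**Figure D4:**
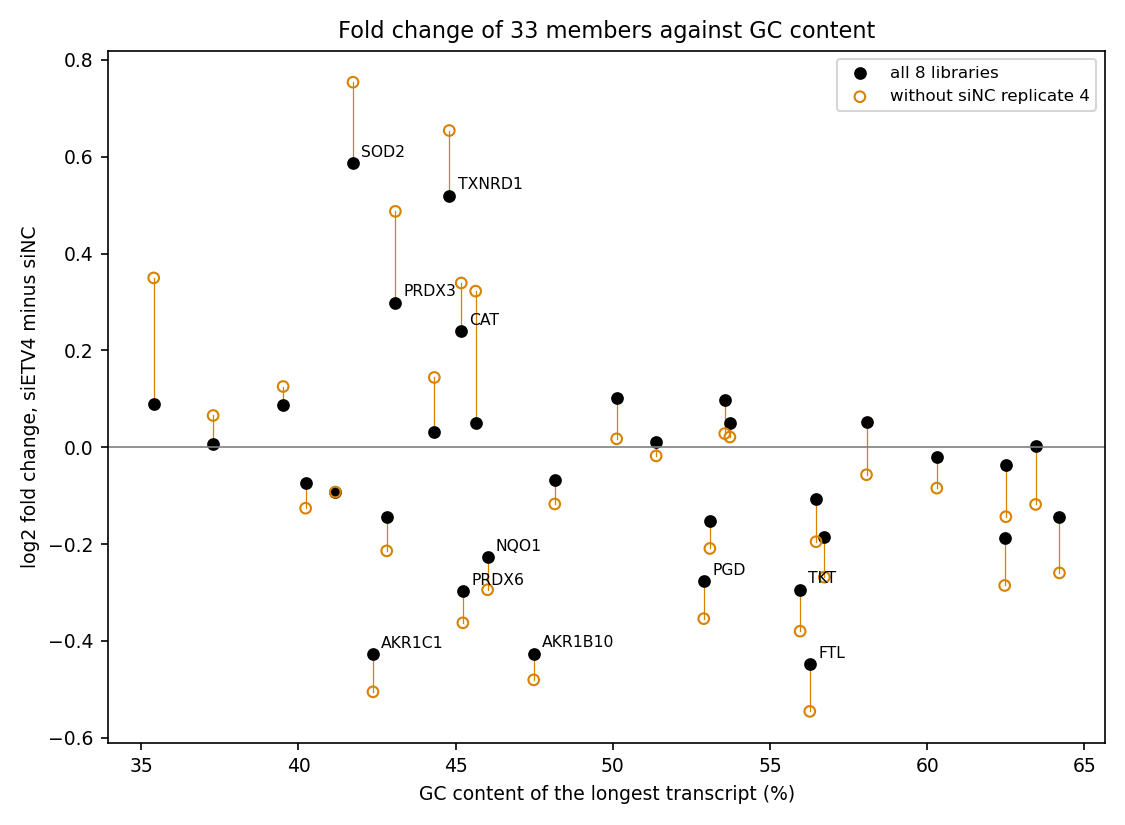
Log2 fold change of the 33 genes against the GC content of the longest transcript in percent. Filled points use all 8 libraries, open points leave out siNC replicate 4, and a line joins both values of a gene. Values spread from -0.45 to 0.59 with all 8 libraries, and SOD2, TXNRD1 and PRDX3 lie high and AKR1C1 low at similar GC content.

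The wider NRF2 pathway was listed by function from general knowledge, with earlier results of these data known. It held 112 further genes, of which 110 were in the table and 97 were tested. Of these, 0 passed an edgeR adjusted p of 0.05, against 0.236% of all genes. At an unadjusted p under 0.05, 7 were higher and 5 lower, near the share over all genes (5.8% higher, 6.79% lower), and the median log2 fold change was 0.01. DESeq2 called 1 of the 97, TXNIP, against 1.64% of all genes, and limma-voom 0, against 0.309%. TXNIP, which binds and inhibits thioredoxin and is strongly induced by glucose, had the smallest p, at 56.5 ± 2.65 CPM under siETV4 and 42.9 ± 4.07 CPM under siNC (SD, n = 4 each; log2 fold change 0.40, SE 0.10, edgeR adjusted p 0.188). The aldehyde dehydrogenase ALDH3A1 followed with -0.40 (SE 0.11, edgeR adjusted p 0.206) and the mitochondrial malic enzyme ME2 with 0.47 (SE 0.14, edgeR adjusted p 0.254). The groups did not overlap for 4 genes that were higher, TXNIP among them, and 4 that were lower, ALDH3A1 among them, against 6.55% of all genes in either direction. The most abundant genes of the wider list by CPM were SLC3A2, the partner chain of SLC7A11, with -0.02 (SE 0.10), and SQSTM1, the autophagy receptor p62 that binds KEAP1, with 0.18 (SE 0.11).

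Without siNC replicate 4, 14 of the 97 wider genes were higher and 5 lower, against 16.9% of all genes in either direction. After correction for GC content and length, 3 were higher and 0 lower, against 1.7% of all genes. The 3 were SQSTM1, the glutathione-degrading enzyme CHAC1 and TRIM16, named because they are so few.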

How the data were processed

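The deposited table held, per the file headers, whole-number read counts and FPKM for each gene symbol in 8 libraries. The authors' counts were used as deposited, without normalization, and the authors' FPKM, scaled by transcript length and library total, served for levels between genes and as an alternative. Per the submitters' processing notes, the build was hg38 and R 3.2.0 was used. Aligner, counter, annotation and strandedness were not given in the sources used here. Groups came from the labels. Counts (35057643 to 41657753 per library) were filtered with filterByExpr (minimum count 10), scaled with TMM and compared, siETV4 minus siNC, with the quasi-likelihood test of edgeR 4.0.16 (R 4.3.3) with no covariate and Benjamini-Hochberg adjustment over all 13572 genes, at an adjusted p of 0.05. Alternatives were DESeq2 1.42.0, limma-voom (limma 3.58.1), other scalings and filters, log2(FPKM + 1) and log2(FPKM + 0.1), a replicate block, offsets for GC content and length (splines with 5 degrees of freedom), and each library left out. On counts simulated from these libraries, edgeR recovered 28.6% of 1.5-fold and 72.5% of 2-fold changes and made 9 false calls. DESeq2 recovered 39.7% and 73.9% and made 39. GC content and promoter sequences came from the reference tables. The members and lists were chosen with earlier results of these data known. Values in every library are given for the regulators and, in each functional group, for the genes with the smallest p and the highest level, and other genes by range. PRDX3 is shown by library because it passed without siNC replicate 4, which was seen first.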

Additional observations from a re-analysis of the deposited data

Results flagged for a closer look

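In 10 of 66 groups of 4 libraries, 1 library lay far from the other 3, by a gap above Dixon's 95% critical value. Chance alone gives this in about 1 in 20 groups, and genes of the same libraries are not independent. The library was siNC replicate 4 in 6 of the 10. It was low for GSR (115 CPM, the others 132 to 133), GSTP1 (957 CPM, the others 1279 to 1317), PGD (209 CPM, the others 262 to 267), TKT (841 CPM, the others 1089 to 1096) and GPX1 (156 CPM, the others 223 to 229). It was high for SOD2 (170 CPM, the others 108 to 117). In the other 4 the library was siETV4 replicate 2, high for TXN (1308 CPM, the others 1106 to 1118), TALDO1 (482 CPM, the others 413 to 422), GPX4 (425 CPM, the others 308 to 326) and PRDX2 (288 CPM, the others 227 to 234).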

How the results depend on the processing

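Under 20 alternatives, 20 of the 33 tested genes kept the sign of their log2 fold change and 13 did not. Among the alternatives, the offsets without siNC replicate 4 singled out that library. Across all genes edgeR called 32, DESeq2 223, the offsets for GC content and length 217, these offsets without siNC replicate 4 830, log2(FPKM + 1) and log2(FPKM + 0.1) 59 each, no filter 54, and the runs without 1 library 9 to 2327, the highest without siNC replicate 4. Higher members numbered 1 by DESeq2, 1 with the offsets, 2 with the offsets without siNC replicate 4, and 0 to 3 without 1 library. Lower members numbered 1, 3, 9 and 0 to 7 in the same order. Of the wider list 1, 3, 5 and 0 to 14 were higher, and 4 were lower with the offsets without siNC replicate 4 and 0 to 5 without 1 library. With the offsets the log2 fold change reversed to -0.11 for GCLC, -0.26 for GCLM, 0.011 for GPX1, 0.11 for GPX4, 0.12 for KEAP1, -0.16 for ME1, -0.040 for NFE2L2, -0.13 for SLC7A11 and 0.023 for TALDO1. With the offsets and without siNC replicate 4 it was -0.070 for GCLC, -0.38 for GCLM, 0.094 for GPX4, 0.12 for KEAP1, -0.26 for ME1, -0.12 for SLC7A11 and 0.020 for TALDO1. By library size alone it was 0.0083 for GPX4 and 0.026 for KEAP1, by log2(FPKM + 0.1) 0.030 for KEAP1, by log2(FPKM + 1) with and without a filter 0.029 for KEAP1, on these FPKM scales 0.0096 for GPX4, and with a minimum of 1 CPM -0.000139 for OSGIN1. Without 1 library it ranged from -0.015 to 0.14 for GCLC, -0.054 to 0.095 for GCLM, -0.070 to 0.32 for NFE2L2, -0.12 to 0.10 for OSGIN1, -0.076 to 0.090 for PRDX1, -0.15 to 0.021 for GPX4, -0.19 to 0.35 for SLC7A11, -0.057 to 0.13 for HMOX1, -0.084 to 0.044 for KEAP1 and -0.012 to 0.12 for SOD1. The cause was not tested. Same-numbered libraries did not deviate together (r = -0.08, 0.27, -0.12 and -0.17; only number 2 correlated best with its own), so the numbers were not used as pairs, and a fit with the replicate block called 4 genes and 0 members. At this depth and spread edgeR recovered 28.6% of 1.5-fold changes simulated in genes drawn at random from all genes tested. Of the 33 members 1 reached 1.5-fold, so differences of the size seen here can be missed. The members had a lower median SE than all genes (0.11 against 0.16), so 28.6% is not their own recovery rate. Noise was drawn separately for each gene, so trends shared across a library, such as that with GC content, are not in it.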

Other observations

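Ratios of CPM were taken within each library for 6 pairs of related genes, chosen after their values were seen and given without a test. FTL over FTH1 was 0.0851, 0.0914, 0.0881 and 0.0840 in siETV4 replicates 1 to 4 and 0.109, 0.144, 0.136 and 0.123 in siNC replicates 1 to 4, so the groups lay apart with siNC replicate 4 included. AKR1C1 over AKR1C2 was 0.228, 0.235, 0.223 and 0.242 in siETV4 and 0.278, 0.324, 0.301 and 0.279 in siNC, also apart. AKR1C1 by itself lay apart too, while FTL by itself did not. The groups overlapped for TXNRD1 over TXN, SOD2 over SOD1, GCLC over GCLM and NFE2L2 over KEAP1. A ratio shows unequal levels of its genes, not which of them differs. How often ratios of other gene pairs lie apart was not computed.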
